A study of Schmidtea mediterranea with 89 samples.

Results

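Planarian neoblasts kept on a soft gel were set directly against neoblasts gathered in U-bottom wells, in 11 of the 89 libraries of the study, which form 4 of its 30 groups. The members were taken from the table of experiment 3 by the condition and day in the labels: the gel at 1 day (3 libraries) against the U-bottom plate at 1 day (3 libraries), and the gel at 3 days (2 libraries) against the U-bottom plate at 3 days (3 libraries). All 4 groups were wild-type (WT) Schmidtea mediterranea cells labelled as planarian SiRNeoblasts, in the same serum-containing medium and in 1 experiment. The gel was a polyacrylamide (PA) gel of 100 Pa. No flat-plate library enters the contrast. Uncultured cells (3 libraries) and the gel at 2 days (3 libraries) of the same table served as further points of reference. Flat-plate libraries of that table were used for the level of 1 list alone. The series text asks how neoblasts fare in culture conditions that change their contact with each other, and the direct contrast asks how the RNA of cells on a soft substrate differs from that of cells brought together at the bottom of a well.

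Neoblasts are the dividing adult stem cells of planarians, which replace all other cell types of the worm and carry regeneration. Outside the body they lose proliferation and viability, and both the stiffness of the surface and the contact with other cells are among the conditions that are varied to keep them. A gel of this softness gives little resistance to a cell that pulls on it, whereas a round-bottomed well collects the cells by gravity. SiRNeoblasts are neoblasts sorted by a fluorescent dye for nuclear DNA. The table pairs its 36035 identifiers with no gene names, and no annotation was used here, so neoblast markers and markers of differentiated cells could not be looked up and the cell type label was not checked. Identifiers are printed as deposited, without a function, and levels were not compared between identifiers because their lengths were not given. In these bulk libraries, fewer cells that carry an RNA and less of that RNA per cell cannot be told apart.

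The compared libraries held between 12814913 and 22528482 counts. A large part of each was taken by 4 identifiers, SMED30027385, SMED30027845, SMED30032887 and SMED30026765, whose summed share was 71.5% ± 4.54 (SD, n = 3) on the gel at 1 day, 73.6% ± 1.86 (n = 3) in the U-bottom plate at 1 day, 81.3% ± 4.67 (n = 2) on the gel at 3 days and 77.1% ± 5.9 (n = 3) in the U-bottom plate at 3 days. In uncultured cells the share was 56.8% ± 1.99 (n = 3). Between gel and U-bottom the share differed by 1.05 percentage points on average over the days, which was within the spread of the libraries (exact permutation test within days, two-sided, p = 0.735, with 0.005 the smallest p it allows). At 3 days, 1 library of each condition stood apart. Gel replicate 2 had 84.6% of its counts in the 4 identifiers and U-bottom replicate 3 had 83.1%, and their scaling factors were 0.463 and 0.514 against 0.78 to 0.965 in the other 3 libraries of that day. Counts of calls, named identifiers and called sets at 3 days are therefore also given without each of these libraries.

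After every library was thinned to the same 2323183 counts outside the 4 abundant identifiers, the gel libraries held 22307 ± 824.4 (SD, n = 3) identifiers above 0 at 1 day against 21010 ± 1656 (n = 3) in U-bottom libraries. At 3 days the numbers were 21383 ± 864.8 (n = 2) and 20086 ± 1109 (n = 3). The gel mean was thus 1297 identifiers higher over both days, a difference that the exact permutation test within days did not separate from the spread (two-sided p = 0.09, 0.18 adjusted over the 2 library measures tested). With at least 5 counts asked of an identifier, the difference was -80.92, so the sign of this difference depended on identifiers with very few counts. Likeness to uncultured cells, as Pearson's r with the uncultured mean on log2 CPM (counts scaled to the effective size of a library), ran from 0.872 to 0.912 on the gel and from 0.872 to 0.896 in the U-bottom plate at 1 day. At 3 days it was 0.854 and 0.866 on the gel, and 0.871, 0.803 and 0.83 in the U-bottom plate. The ranges of gel and U-bottom overlapped on both days.

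**Figure D1:**
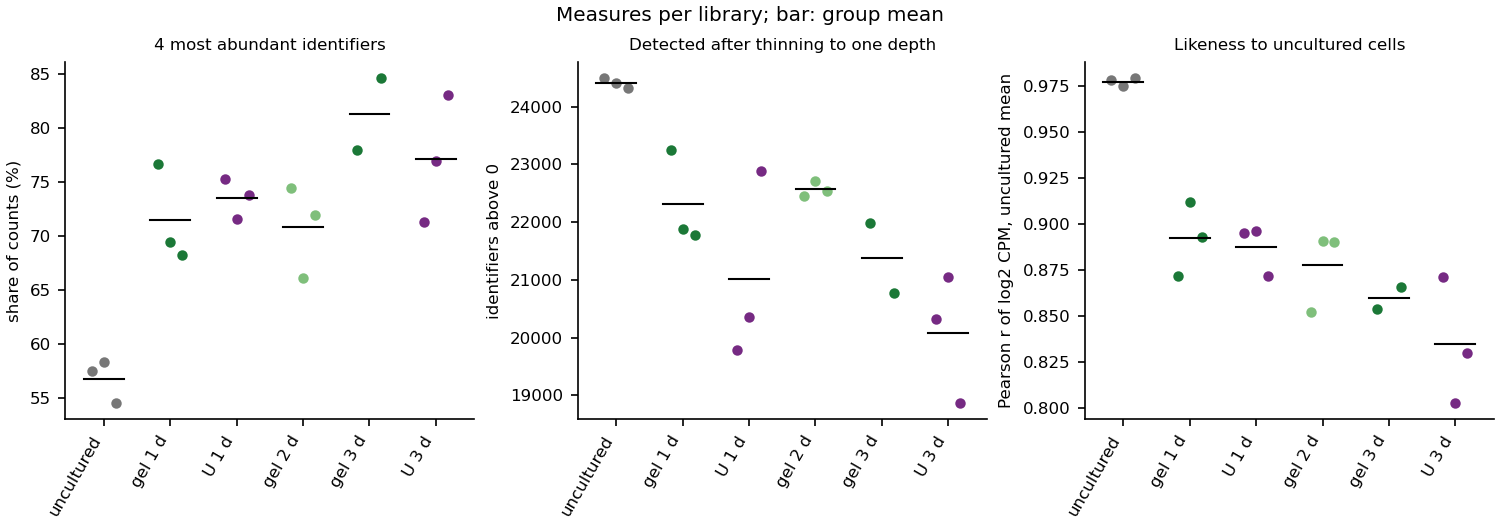
Measures of each library by group: the summed share of the 4 abundant identifiers (%), the number of identifiers above 0 after thinning, and Pearson's r with the uncultured mean. Points are libraries and bars group means; gel and U-bottom points overlap in all panels, and the uncultured libraries lie apart with the lowest shares.

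At 1 day few identifiers separated the gel from the U-bottom plate. Of 20949 identifiers tested, 14 were higher (0.0668%) and 17 were lower (0.0811%) on the gel, 0.148% in all (edgeR quasi-likelihood test, adjusted p under 0.05). Without the adjustment 1688 had p under 0.05. The libraries of the 2 conditions did not overlap for any of the 31, as was also true of 7.8% (higher) and 6.32% (lower) of all identifiers tested. The median log2 fold change of gel over U-bottom was 1.35 among the 14 and -1.38 among the 17, against 0.00437 over all identifiers tested. The 1 higher identifier with no count in any U-bottom library was set to a lower bound for this median, which did not move it. The others ran from 0.905 to 2.57 among the higher and from -3.04 to -0.835 among the lower. Most calls were of well counted RNAs: at a mean of 10 CPM or more, 23 of 4797 identifiers were called (0.479%). The median standard error (SE) of log2 fold changes at that level was 0.205. The count fell to 11 without gel replicate 3 and to 20 without U-bottom replicate 1 or replicate 2, and 8 of the 31, 2 higher and 6 lower, passed in all 6 fits that left out 1 library.

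SMED30027170 was the 1 identifier higher on the gel at 1 day that had at least 10 CPM and passed in every fit. Its levels were 29.9, 28.4 and 34.8 CPM on the gel and 10.9, 12.1 and 10.5 CPM in the U-bottom plate. The groups were far apart and each was tight, with a log2 fold change of 1.47 (SE 0.187, edgeR adjusted p = 4.49e-05). At 3 days the gel libraries held 36 and 25.1 CPM and the U-bottom libraries 25.3, 15.4 and 20.8 CPM. The groups then overlapped by a narrow margin, and the difference of 0.575 did not pass the test (edgeR adjusted p = 0.162). In uncultured cells the identifier stood at 5.91, 4.75 and 5.67 CPM, under every cultured library of the comparison. SMED30030510 had 11.4, 21.5 and 13 CPM on the gel at 1 day against 4.92, 7.4 and 4.6 CPM. Its groups did not overlap, but gel replicate 2 lay well above the other gel libraries. The log2 fold change was 1.45 (SE 0.248, edgeR adjusted p = 0.00492), and without that library it was 1.12 with an adjusted p of 0.079.

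Among the identifiers lower on the gel at 1 day, SMED30025308 had 85.8, 145 and 83.7 CPM on the gel against 376, 429 and 290 CPM in the U-bottom plate. The lowest U-bottom library held more than any gel library, and the log2 fold change was -1.80 (SE 0.226, edgeR adjusted p = 4.49e-05). Its difference persisted at 3 days, with 74.7 and 120 CPM against 222, 285 and 355 CPM and a log2 fold change of -1.56 (SE 0.26, edgeR adjusted p = 0.00114). Uncultured cells lay between the conditions, at 192, 203 and 164 CPM, and the gel at 2 days was low again, at 74.3, 63.3 and 69 CPM. SMED30031308 behaved likewise. It stood at 60.2, 73.9 and 49.1 CPM on the gel at 1 day and at 197, 226 and 175 CPM in the U-bottom plate, a log2 fold change of -1.70 (SE 0.203, edgeR adjusted p = 3.44e-05). At 3 days it stood at 41.7 and 57.4 CPM against 183, 215 and 203 CPM, a log2 fold change of -2.02 (SE 0.24, edgeR adjusted p = 8.27e-06). The U-bottom levels of this identifier were close to the 198, 153 and 164 CPM of uncultured cells, and the gel levels were below all 3 of them on both days.

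At 3 days 121 identifiers were higher (0.578%) and 119 lower (0.568%) on the gel, 1.15% of the 20949 tested (edgeR adjusted p under 0.05), with 3049 at p under 0.05 before adjustment. The higher calls were smaller and the lower calls larger: the median log2 fold change was 1.04 among the higher and -1.61 among the lower, against -0.0574 over all identifiers tested. With the 4 abundant identifiers taken out before scaling, the split was 182 higher and 93 lower. The medians of the sets stayed the same with the 4 higher calls that had no count in any U-bottom library and the 1 lower call with none on the gel set to their bounds. The remaining calls ran from 0.624 to 4.78 and from -4.58 to -0.708. Among identifiers of at least 10 CPM, 97 were higher and 54 lower of 4759 (3.17%). Counts behind the calls were larger in the higher set, as CPM not scaled to length, with a median of 24.7 against 8.93 in the lower set and 1.8 over all tested. All 240 calls had gel and U-bottom libraries that did not overlap. That alone was common, since 12% of all tested identifiers were higher and 11.1% lower on the gel without overlap in this comparison of 2 with 3 libraries.

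The number of calls at 3 days depended on gel replicate 2, the library with the lowest scaling factor. Without it 4 identifiers were higher and 12 lower, all among the 240. This fit rests on 1 gel library, whose spread was taken to be that of the other groups. Without gel replicate 1 there were 194 calls. Without U-bottom replicate 3, the other library that stood apart, 220 were higher and 151 lower, without replicate 1 there were 421 calls in all, and without replicate 2 there were 157. All 240 kept their sign in each of these 5 fits. This adds little, since groups that do not overlap keep their order when 1 library is left out. Only 14 of the 240, 4 higher and 10 lower, passed the threshold in every fit.

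SMED30024144 had the largest difference among the identifiers of at least 10 CPM that passed in every fit at 3 days. Its levels were 5.45 and 3.39 CPM on the gel against 79.8, 72.8 and 89.8 CPM in the U-bottom plate. No gel library came near the lowest U-bottom library, and the identifier was 17.9-fold lower on the gel (log2 fold change -4.17, SE 0.341, edgeR adjusted p = 4.29e-09). At 1 day it was already lower on the gel, with 2.7, 4.02 and 2.82 CPM against 8.59, 11.7 and 7.11 CPM and a log2 fold change of -1.5 (SE 0.279, edgeR adjusted p = 0.00856). The gel at 2 days held 6.73, 7.02 and 8.21 CPM and uncultured cells 4.56, 3.77 and 3.73 CPM. Levels on the gel thus remained within a few CPM of uncultured cells at all 3 time points, and the high level was seen in the U-bottom plate at 3 days. Without gel replicate 2 of 3 days the log2 fold change of 3 days was -3.86 (edgeR adjusted p = 1.57e-05), and without U-bottom replicate 3 it was -4.06 (edgeR adjusted p = 4.2e-08).

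The growth of this difference was itself tested. Across all 20949 identifiers, SMED30024144 was the 1 identifier whose gel over U-bottom difference itself differed between 3 days and 1 day (0.00477% of those tested, edgeR adjusted p = 0.00934), by -2.66 on the log2 scale (SE 0.42). Before adjustment 1707 identifiers had p under 0.05. The direction held in all 11 fits that left out 1 library, from -2.99 to -2.35. The call was lost in 3 of these fits, with an adjusted p of 0.125 without gel replicate 2 at 1 day, 0.354 without gel replicate 2 at 3 days and 0.0505 without U-bottom replicate 1 at 1 day.

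SMED30008414 had the second largest fall among the 9 lower identifiers of 3 days that had at least 10 CPM and passed in every fit, with 107 and 95.9 CPM on the gel against 614, 565 and 769 CPM. Its groups were separated by a wide gap, and the log2 fold change was -2.68 (SE 0.373, edgeR adjusted p = 0.000113). It was -2.58 without gel replicate 2 (edgeR adjusted p = 0.0276) and -2.51 without U-bottom replicate 3 (edgeR adjusted p = 0.000552). At 1 day it held 238, 411 and 300 CPM on the gel against 990, 1070 and 826 CPM, again without overlap (log2 fold change -1.60, SE 0.304, edgeR adjusted p = 0.0102). The gel at 2 days, at 194, 195 and 148 CPM, lay between the gel at 1 and at 3 days. Uncultured cells held 411, 460 and 747 CPM, so that at 1 day the U-bottom libraries were above and the gel libraries at or below the uncultured range.

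The named identifiers higher on the gel at 3 days showed smaller differences. SMED30013692 had 340 and 460 CPM on the gel against 170, 94.5 and 142 CPM, a log2 fold change of 1.56 (SE 0.232, edgeR adjusted p = 0.000241). Without gel replicate 2 it was 1.35 and close to the threshold (edgeR adjusted p = 0.0451), and without U-bottom replicate 3 it was 1.62 (edgeR adjusted p = 0.000938). The gel libraries were within or above the 281, 330 and 376 CPM of uncultured cells, and the U-bottom libraries were below all of them. At 1 day, with 221, 252 and 236 CPM against 207, 151 and 168 CPM, the groups did not overlap but the difference of 0.433 did not pass the test (edgeR adjusted p = 0.616). SMED30004923 had 48.8 and 51.6 CPM on the gel at 3 days against 13.9, 12 and 27.5 CPM, with U-bottom replicate 3 the highest of its group. Its log2 fold change was 1.53 (SE 0.258, edgeR adjusted p = 0.00125), and with only the groups of 3 days in the fit the adjusted p was 0.0697. Leaving out gel replicate 2 gave 1.51 (edgeR adjusted p = 0.0488), and leaving out U-bottom replicate 3 gave 1.98 (edgeR adjusted p = 2.48e-05). The gel level was near that of 1 day, which was 54.4, 47.4 and 50.3 CPM, while the U-bottom libraries had held 45.2, 30.9 and 39 CPM at 1 day, each more than any of them at 3 days. In uncultured cells the level was 8.85, 11.3 and 8.85 CPM, below every cultured library of the comparison.

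**Figure D2:**
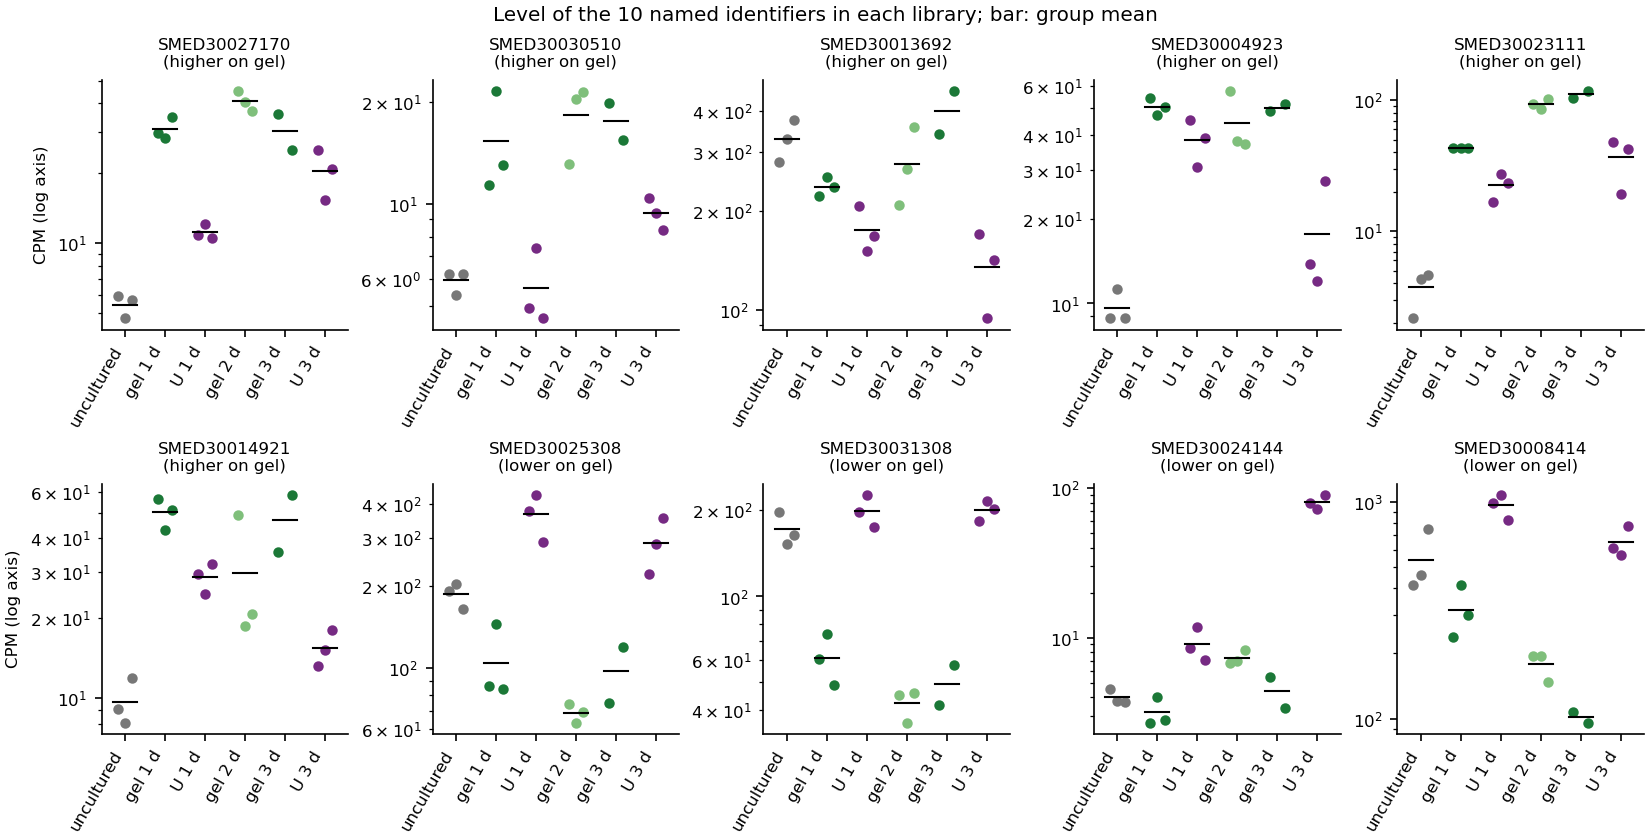
Level in CPM (log axis, its range set per panel) of the 10 named identifiers in each library of uncultured cells, the gel at 1, 2 and 3 days and the U-bottom plate at 1 and 3 days. Points are libraries and bars group means; for SMED30024144 the 3 U-bottom libraries of 3 days, at 72.8 to 89.8 CPM, lie above all others.

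With both days averaged, 250 identifiers were higher (1.19%) and 195 lower (0.931%) on the gel, 2.12% in all (edgeR adjusted p under 0.05), and 250 of these 445 had passed at neither day alone. This comparison pooled 5 gel with 6 U-bottom libraries and its median SE at 10 CPM or more was 0.155, the smallest of the comparisons made. Over the 11 fits that left out 1 library the count ran from 131, without gel replicate 2 of 3 days, to 630. It was 280 without gel replicate 2 of 1 day and 250 without gel replicate 3 of 1 day. Of the 445, 100 passed in every fit, 53 higher and 47 lower. The single days had other numbers of calls and of fits, so their counts are not set against this one. Among the identifiers of at least 10 CPM that passed in every fit, SMED30024144 and SMED30008414 had the largest falls here as well, with log2 fold changes of -2.83 and -2.14.

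SMED30023111 had the largest rise of the averaged days under the same conditions, while calls of fewer counts or that did not pass in every fit reached further. Its levels on the gel were 43.2, 43.5 and 43 CPM at 1 day, 94.1, 86.6 and 102 CPM at 2 days, and 104 and 118 CPM at 3 days. The U-bottom libraries held 16.8, 27.4 and 23.3 CPM at 1 day and 48.3, 19.1 and 42.6 CPM at 3 days, below the gel libraries of the same day in every case. The mean log2 fold change was 1.27 (SE 0.186, edgeR adjusted p = 0.000116). Uncultured cells held 2.16, 4.33 and 4.67 CPM, so that the level was above that of uncultured cells in both conditions, and more so on the gel. SMED30014921 had 56.2, 43.1 and 51.3 CPM on the gel at 1 day against 29.4, 24.7 and 32 CPM. At 3 days it had 35.5 and 58.1 CPM against 13.2, 15.2 and 18 CPM. Gel and U-bottom did not overlap on either day (mean log2 fold change 1.2, SE 0.22, edgeR adjusted p = 0.00156), although the gel at 2 days, at 49.1, 18.7 and 20.8 CPM, reached down to between the U-bottom libraries of 3 days and those of 1 day.

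The comparisons of the 2 days share no library, so each day could be read against the other. Of the 121 identifiers higher on the gel at 3 days, 105 (86.8%) were also above 0 at 1 day, and of the 119 lower, 102 (85.7%) were below 0. Among all tested identifiers the corresponding shares were 57.2% and 55.3%. In the other direction, 13 of the 14 higher and all 17 lower identifiers of 1 day had the same sign at 3 days, against 51.8% and 59.6% of all identifiers above and below 0 at 1 day. The called identifiers therefore carried their direction across days far more often than tested identifiers in general. With gel replicate 2 of 3 days left out, 16 of the 16 identifiers then called at 3 days had the same sign at 1 day, and with U-bottom replicate 3 left out 299 of 371 did.

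In either direction of reading, the median difference was smaller in size on the day that had not chosen the set, apart from the lower calls of 1 day. At 1 day the median of the 121 was 0.327 on the log2 scale and that of the 119 was -0.44, both chosen at 3 days for larger values. The 14 higher calls of 1 day went from 1.35 to 0.812 at 3 days, and the 17 lower calls from -1.38 to -1.87. Passing the threshold on both days were 16 identifiers, 3 higher and 13 lower, with none called in opposite directions, which is 51.6% of the 1 day list and 6.67% of the 3 day list. As a description over all 20949 identifiers, which share libraries and are not independent, the fold changes of the days correlated weakly (Pearson's r 0.111, Spearman's rho 0.156). Among the 4843 identifiers of at least 10 CPM over experiment 3, r was 0.38 and rho 0.331.

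**Figure D3:**
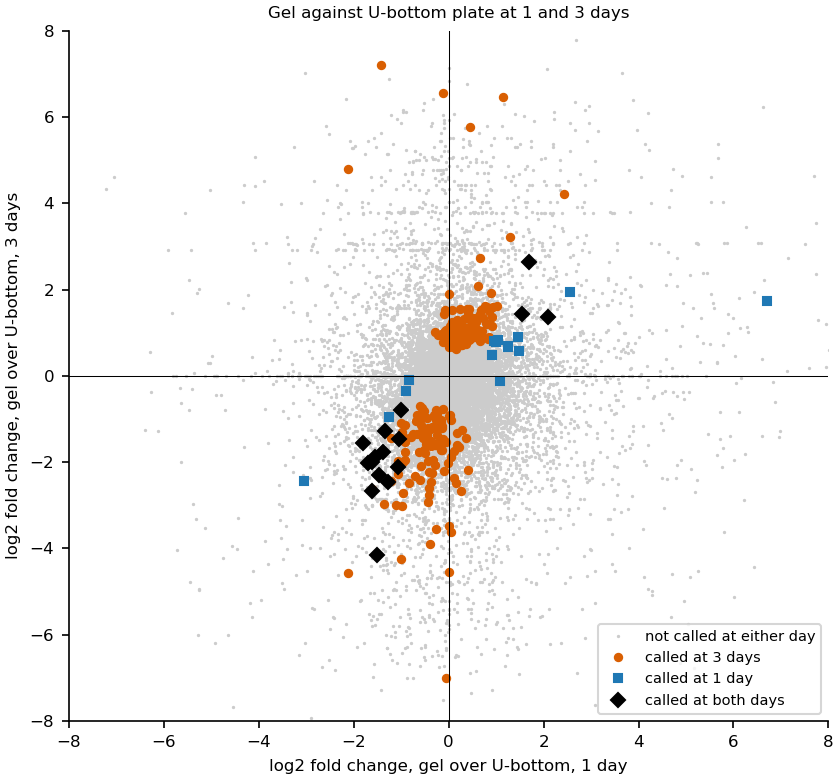
Log2 fold change of gel over U-bottom at 3 days (vertical axis) against that at 1 day (horizontal axis) for the tested identifiers, marked by the day at which they were called, with 13 identifiers outside the axes. The 16 called on both days lie in the lower left (13) and the upper right (3), and the calls of 3 days lie mostly in the same 2 quadrants.

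The levels of the called sets in single libraries are given as a description, since the values of 3 days chose the sets. The 121 identifiers higher on the gel at 3 days had median log2 CPM values of 4.85 and 5.45 in the gel libraries of 3 days and of 3.99, 3.78 and 4.14 in the U-bottom libraries. On the gel at 1 day their medians were 4.89, 4.82 and 4.90, so the first gel library of 3 days was level with them and the second, the library that stood apart, was higher. In the U-bottom plate they had been at 4.75, 4.55 and 4.42 at 1 day, each above the U-bottom libraries of 3 days. Uncultured cells were at 4.01, 4.05 and 4.01, within the range of the U-bottom plate at 3 days.

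For the 119 lower identifiers, gel medians were 3.02, 3.18 and 3.1 after 1 day, then 2.79, 2.89 and 2.9 after 2 days, and 2.24 and 2.15 after 3 days. U-bottom medians were 3.4, 3.69 and 3.53 at 1 day, followed by 3.82, 3.74 and 3.65 at 3 days, which overlapped. Uncultured cells, at 3.33, 3.3 and 3.32, lay between the conditions. Identifier by identifier, 67 of the 119 had their uncultured mean between the gel and the U-bottom mean, 33 had it above both and 19 below both. Among the 121 higher identifiers 45 were between, 53 were below both and 23 were above both. Neither condition was thus uniformly nearer to uncultured cells: the gel mean was the nearer one for 33.9% of the higher and 43.7% of the lower set, against 53% and 45.9% of all identifiers above and below 0 at 3 days.

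The libraries that stood apart could be read in sets they had not helped to choose. Gel replicate 2 of 3 days was left out of the fit that gave 4 higher and 12 lower calls. In that library, which had no part in the calls, the 12 had a median log2 CPM of 5.74, near the 5.47 of the other gel library and below the 7.26, 7.54 and 7.23 of the U-bottom plate. The 4 higher identifiers were at 7.27 in it, against 7.01 in the other gel library and 5.61, 5.08 and 5.97 in the U-bottom plate. Without U-bottom replicate 3, the 220 then called higher were at 4.39 in that library, against 3.91 and 3.83 in the other U-bottom libraries and 4.77 and 5.21 on the gel. The 151 then called lower were at 3.2 in it, against 3.52 and 3.79 in the other U-bottom libraries and 2.3 and 1.81 on the gel. Gel replicate 2 thus lay on the side of its own condition in both of its sets. These sets are small, and most calls of 3 days passed only with that library in the fit and are not covered by this reading. U-bottom replicate 3 lay between the conditions in both of its sets. In the 220 it was nearer to the gel library at 4.77 than to either other U-bottom library, and in the 151 it was nearer to the U-bottom libraries.

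**Figure D4:**
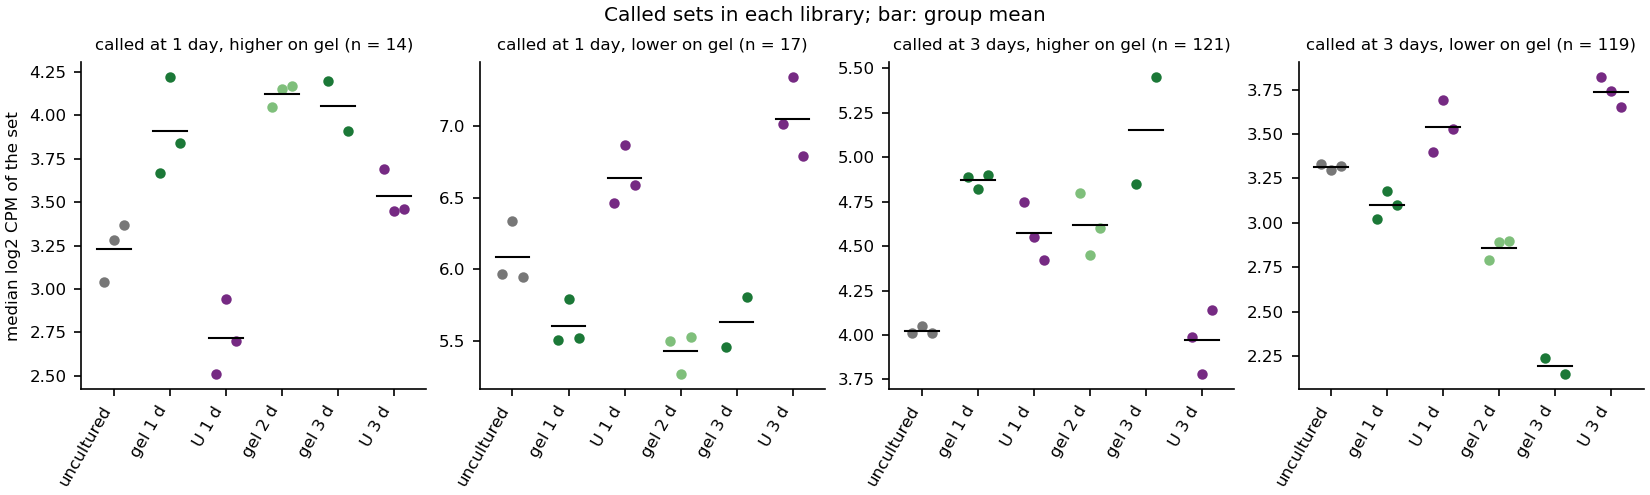
Median log2 CPM of the identifiers called at 1 day (14 higher, 17 lower) and at 3 days (121 higher, 119 lower) in each library of 6 groups. Points are libraries and bars group means; the lower set of 3 days is lowest on the gel at 3 days, at 2.24 and 2.15, and the higher set is at its lowest in uncultured cells and in the U-bottom plate at 3 days.

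None of the 4 abundant identifiers was called between gel and U-bottom at either day by edgeR, with 0.0824 (SMED30027385 at 3 days) the lowest p before adjustment. SMED30027385 took 56.4%, 31.3% and 37.6% of the counts on the gel at 1 day against 44.8%, 36.2% and 48.5% in the U-bottom plate, and 50.7% and 59.9% against 20.1%, 33% and 54% at 3 days. Its share thus varied as much within a condition as between them, and its edgeR adjusted p was 0.943 at 1 day and 0.421 at 3 days. It took 10.4%, 13.7% and 10.8% in uncultured cells, less than in any cultured library of the comparison. SMED30027845 went the other way against uncultured cells, where it took 29.5%, 30.7% and 28.1%. It took 7.13% to 16.8% on the gel and 10.1% to 21% in the U-bottom plate, with an edgeR adjusted p of 0.864 at 1 day and 0.502 at 3 days. SMED30032887 had an edgeR adjusted p of 0.786 and 0.741 at the same days, and SMED30026765 of 0.942 and 0.989.

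Without gene names, lists drawn from the other experiments were used to see which RNAs the contrast involved. AggreWell plates gather cells in microwells, as U-bottom wells do. Experiment 2, which had 1 day of culture only, gave 2156 identifiers higher and 1672 lower in AggreWell than in flat plates (21% of 18266 tested, edgeR adjusted p under 0.05). Of the higher list 1713 identifiers were tested here. At 1 day their median gel over U-bottom log2 fold change was -0.0528, with 44.9% above 0 against 50.3% of all tested. At 3 days the median was -0.665, with 19.4% above 0 against 45.5% of all tested. Of the list members 0 passed as higher and 9 (0.525%) as lower on the gel in edgeR, against 0.578% and 0.568% of all tested, so the share called lower was that of the background. Before adjustment 0.992% were higher and 16.8% lower with p under 0.05, against 7.19% and 7.36% of all tested. In DESeq2 2 passed as higher and 54 as lower, 0.117% and 3.15% against 1.73% and 1.82%. The lean was seen in each abundance class (mean over experiment 3): 27.3% against 40.7% of all tested were above 0 below 1 CPM, 14.4% against 43% from 1 to 10 CPM, and 5.04% (of 119) against 57.9% at 10 CPM or more.

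In single libraries of 3 days, the median log2 CPM of the AggreWell higher list was 0.0405 and -0.306 on the gel, and 0.223, 0.921 and 0.137 in the U-bottom plate. The groups did not overlap, and U-bottom replicate 2 was far above the rest. Over all tested identifiers the medians were 0.905 and 0.702 on the gel and 0.929, 1.18 and 0.854 in the U-bottom plate. These overlapped, and U-bottom replicate 2 was the highest there too. Without U-bottom replicate 2 the median fold change of the list was -0.254, and over all fits that left out 1 library it ran from -0.966 to -0.254. At 1 day the medians overlapped, with 0.352, -0.0167 and 0.0691 on the gel and -0.17, 0.0329 and 0.588 in the U-bottom plate. Flat plates of experiment 3 were at 0.26 ± 0.371 (SD, n = 3) at 3 days, and U-bottom plates at 0.427 ± 0.43. Flat plates of 1 day were at 0.572 ± 0.215 and U-bottom plates at 0.15 ± 0.392. The list was thus not clearly higher in U-bottom than in flat plates of experiment 3. The 1672 identifiers lower in AggreWell had a median of 0.0818 at 3 days with 59.7% above 0. Of these, 30 passed as higher (1.79%, against 0.578% of all tested) and 13 as lower (0.778%, against 0.568%). At 10 CPM or more, 28 of 1333 were called higher and 13 lower, against 95 and 63 of all 4843. At 10 CPM or more, where most of them lie, 60.2% were above 0 against 57.9% of all tested, a share near the background.

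A second pair of lists held identifiers called in the same direction after 3 days of flat culture, against uncultured cells, in both experiment 4 (15.8% of those tested were called) and experiment 5 (3.69%). Of 300 that rose in culture, 282 were tested here, with a median gel over U-bottom log2 fold change of -0.0146 at 1 day and -0.667 at 3 days. At 3 days 16.3% were above 0 against 45.5% of all tested, while 3 (1.06%) passed as higher and 4 (1.42%) as lower on the gel, against 0.578% and 0.568%. In single libraries their median log2 CPM was 1.94 and 1.45 on the gel at 3 days and 2.01, 2.97 and 2.05 in the U-bottom plate, which did not overlap by a small margin, with U-bottom replicate 2 again the highest. Without it the median was -0.239. Of the 112 that fell in culture, all were tested and their median was 0.00373 at 3 days, with 50% above 0. The list that rose in culture thus leaned to the U-bottom side at 3 days, to a degree that depended on 1 U-bottom library, and the list that fell had a median near 0. The AggreWell higher list and the list that rose in culture share 220 identifiers, which is most of the 300 that rose. The leans of these lists are therefore not separate results. The AggreWell higher list without the shared identifiers had a median of -0.656 over 1506 identifiers. The list that rose in culture was not looked at without them.

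The sets called at 3 days were then followed in libraries that had no part in their choice. In experiment 5, U-bottom plates were compared with flat plates at 1, 3 and 7 days. Of the identifiers lower on the gel than in the U-bottom plate at 3 days, 61.3%, 80.7% and 74.8% had a level in U-bottom plates above that in flat plates at these days, against 42.8%, 47.2% and 56.3% of all tested and 46.9%, 45.4% and 36.3% of those with at least 10 CPM in experiment 3. Of the identifiers higher on the gel, 24%, 28.9% and 18.2% were above 0. On each of the 3 days the lower set thus leaned to higher levels in U-bottom plates and the higher set to lower levels. None of their members passed the edgeR test of experiment 5, in which 0%, 0.00827% and 0% of 24174 identifiers were called. Before adjustment, at 3 days, 13 of the lower set (10.9%) were higher and 0 lower in U-bottom plates with p under 0.05, against 6.64% and 5.01% of all tested, 4.38% and 3.58% of those of 1 to 10 CPM and 2.06% and 3% of those of at least 10 CPM. Of the higher set 2 (1.65%) were higher and 15 (12.4%) lower. The sets called without gel replicate 2 of experiment 3 were small, and 11 of the 12 lower and 1 of the 4 higher were above 0 at each of the 3 days. Of the sets called without U-bottom replicate 3, 60.7%, 80% and 76% of the lower and 21.4%, 25.9% and 21.8% of the higher were above 0.

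SMED30024144 stood at 57.8, 74.8 and 62.6 CPM in the U-bottom plates of experiment 5 at 3 days against 22.7, 23.8 and 21.1 CPM in flat plates. These groups did not overlap, and the log2 fold change was 1.53 (SE 0.491, edgeR adjusted p = 0.407). SMED30023111, higher on the gel, was lower in the U-bottom plates of experiment 5 at 3 days, with a log2 fold change of -1.49 (SE 0.318, edgeR adjusted p = 0.104). SMED30027170, also higher on the gel, was at 0.535 there, in the other direction (edgeR adjusted p = 0.57). In AggreWell at 1 day, the only day of experiment 2, SMED30024144 was at -0.342 over flat plates (edgeR adjusted p = 0.635). Its levels there were low, at 2.97 to 3.64 CPM against 2.26 to 7.23 CPM in flat plates. The U-bottom value of experiment 5 at 1 day was 0.931, opposite in sign (edgeR adjusted p = 0.772). SMED30023111 was lower in AggreWell at 1 day, at 2.52, 4.96 and 6.37 CPM against 14.8, 13.2 and 12.8 CPM in flat plates (log2 fold change -1.58, SE 0.388, edgeR adjusted p = 0.0113). SMED30004923, also higher on the gel, was lower there too (log2 fold change -0.843, edgeR adjusted p = 0.0398). No other named identifier was called in AggreWell. SMED30025308 and SMED30008414, lower on the gel on both days, had differences of -0.0235 and 0.219 between U-bottom and flat plates at 3 days in experiment 5, neither past the test (edgeR adjusted p = 1 and 0.973). Of the rest, SMED30013692, higher on the gel, was at 0.191 there. SMED30030510, SMED30004923 and SMED30014921, also higher on the gel, were at -0.525, -0.569 and -0.5, and SMED30031308, lower on the gel, at 0.225. None of these passed the edgeR test.

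In AggreWell against flat plates, 4.35% of the 115 tested identifiers of the higher set were above 0 and 30 (26.1%) passed as lower. Of all identifiers with at least 10 CPM in experiment 3, 9.95% were above 0 there and 27.5% passed as lower, so the count called in the higher set was at its background. Of the 117 tested identifiers of the lower set 35% were above 0, between the 43.3% of all identifiers of 1 to 10 CPM and the 9.95% of those above.

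**Figure D5:**
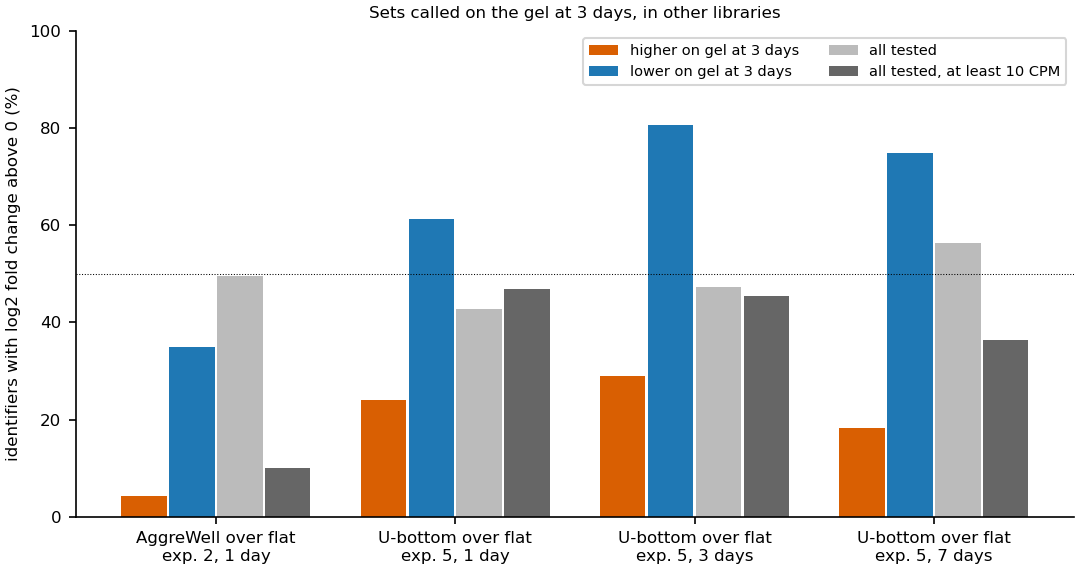
Share of identifiers (%) with a log2 fold change above 0 in AggreWell over flat plates (experiment 2, 1 day) and in U-bottom over flat plates (experiment 5, 1, 3 and 7 days), for the sets called higher or lower on the gel at 3 days and for all tested identifiers. The lower set reaches 80.7% in U-bottom plates at 3 days, and in AggreWell the identifiers of at least 10 CPM as a whole are at 9.95%.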

How the data were processed

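RNA of 26 libraries of experiment 3 was used, 11 of them in the comparisons, with tables of experiments 2, 4 and 5 for lists. Per the labels' protocols, cDNA was made with a template switching oligo, PCR-amplified and tagmented with Tn5. No molecular identifiers are mentioned, so fragments are not independent molecules, and bounds and floors cover counting error only. Experiments 2 and 3 were deposited as estimated counts, and experiments 4 and 5 as whole counts, all called counts in the labels. In the table of experiment 3, 100% of the non-zero values are not whole, and what made them so is not stated. The submitters' processing notes list kallisto 0.46.2 and R 4.0.5 without a role. For the transcriptome and annotation, nothing was given in the sources used here. No column was left without a sample.

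Estimated counts were rounded to whole numbers. In R 4.3.3, edgeR 4.0.16 kept identifiers by its default filter, scaled libraries by TMM and fitted all 9 groups of experiment 3 together, 1 mean per group. Two-sided quasi-likelihood F tests were adjusted by Benjamini-Hochberg over 20949 identifiers (threshold 0.05), and SE is the absolute log2 fold change over the square root of F. Other experiments were fitted in their own tables. CPM used effective library sizes, and log2 CPM a prior count of 2. Bounds used a floor of 3 counts over the group at 0. Scripts were tested on simulated data. Library measures were tested by exact permutation within days (200 arrangements). Nothing in the labels says that libraries came from separate cultures or animals, so a p-value covers the spread of these libraries alone, and that spread may be technical.

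Named identifiers are the 2 highest and 2 lowest log2 fold changes per comparison among calls of at least 10 CPM whose groups do not overlap and whose call held without each library in turn. The last condition was dropped for SMED30030510 and for the difference between days. The members and lists were chosen with earlier results of these data known. Gene lists of neoblast and other cell type markers were planned, but without gene names they could not be matched to identifiers, so they have no result. Alternatives covered DESeq2 1.42.0, RLE scaling, filters, the 4 abundant identifiers, the groups fitted, a replicate block and each library left out.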

Additional observations from a re-analysis of the deposited data

Results flagged for a closer look

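The gel over U-bottom difference of SMED30024144 was larger at 3 days than at 1 day, by -2.66 on the log2 scale (SE 0.42, edgeR adjusted p = 0.00934 for the difference between the days, over 20949 identifiers). It drew attention because the test of the difference itself passed the threshold. All 5 gel libraries of 1 and 3 days, at 2.7 to 5.45 CPM, were below all 6 U-bottom libraries, and the U-bottom libraries went from 7.11 to 11.7 CPM at 1 day to 72.8 to 89.8 CPM at 3 days. The gel at 2 days, at 6.73, 7.02 and 8.21 CPM, overlapped the U-bottom libraries of 1 day. The call held in 8 of the 11 fits that left out 1 library, and not with the replicate number as a block (edgeR adjusted p = 0.1).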

How the results depend on the processing

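Counts of calls moved with the setting. No named identifier changed its sign under the settings tried. Of their alternative values 204 kept the side of the threshold and 7 lost the call. The 204 include fits that left out 1 library, and holding in these was a condition for naming all but SMED30030510 and the difference between the days. That part of the 204, and the sign in groups chosen for not overlapping, were thus set by the choice and are no measure of stability. In the order 1 day, 3 days, mean of the days and difference between the days, calls numbered 185, 615, 787 and 101 without a low-count filter, 162, 744, 912 and 34 with DESeq2, and 17, 83 and 199 (the first 3) with only the 4 compared groups fitted. With identifiers of at least 10 CPM alone they numbered 131, 375 and, for the difference between the days, 5. With only the groups of 1 day in the fit, 66 were called at 1 day, and with only those of 3 days 7 were higher and 28 lower, 35 in all. With fewer groups fitted, 4 were higher and 13 lower at 1 day. Without the 4 abundant identifiers, 182 were higher and 93 lower at 3 days, and the log2 fold changes of single identifiers moved by a median of 0.0896. Leaving out 1 library gave 11 to 36 calls at 1 day (11 without gel replicate 3, 20 without U-bottom replicate 1 or 2), 16 to 421 at 3 days, 131 to 630 for the mean of the days and 0 to 12 for the difference between them (0 without gel replicate 2 of either day or U-bottom replicate 1 of 1 day, 12 without U-bottom replicate 1 of 3 days). Fits that leave 1 gel library at 3 days take its spread from the other groups. The difference in the share of the 4 abundant identifiers ran from -0.6 to 2.7 percentage points, and was -0.25 without gel replicate 1 of 1 day, -0.6 without gel replicate 2 of 3 days and -0.4083 without U-bottom replicate 1 of 3 days. The difference in detected identifiers ran from 990.1 to 1768 (p = 0.03 in the exact permutation test without U-bottom replicate 3 of 1 day, before adjustment) and was -80.92 with at least 5 counts. The cause of these shifts was not tested.

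With the replicate number of the titles as a block, 9, 40, 96 and 0 identifiers were called, and 14, 39, 94 and 2 with the number in the table's columns, a pairing added after the data were seen. Deviations of libraries with the same title number correlated at -0.194, 0.231 and -0.024 at 1 day and at -0.0994 and -0.403 at 3 days. By column number the second gel library of 3 days goes with U-bottom replicate 3, at 0.292. With 2 gel libraries the deviations mirror each other, so the values of 3 days cannot decide on a pairing. Libraries were left unpaired because the labels do not say that a number marks a shared source. Under the block SMED30030510 at 1 day had an edgeR adjusted p of 0.0911, and SMED30024144 between the days one of 0.1.

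Depth limits the low end: the median SE over all identifiers was 0.527 at 1 day and 0.602 at 3 days, against 0.205 and 0.231 at 10 CPM or more. The group of 2 gel libraries limits 3 days.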
